A study of Mus musculus with 12 samples.

Results

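The counts of 2 mouse mammary carcinoma lines, 4T1 and EMT6, were joined by gene identifier, and the change that Nedd4 knockout (KO) brought in EMT6 was set against the change it brought in 4T1. The value of each gene is the interaction of line and knockout, (EMT6 KO minus EMT6 control) minus (4T1 KO minus 4T1 control), on the log2 scale. A positive value is therefore a more positive change in EMT6, and a value of 1 is a 2-fold difference between the changes. All 12 libraries of the series entered, 3 in each of 4 groups. Of 56691 listed genes, 12006 passed the filter on low counts in both lines and were tested. A further 1307 passed in 4T1 alone and 884 in EMT6 alone, and these have no interaction value here.

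The control groups are 4T1 and EMT6 cells of genotype WT, and the KO groups are derivatives of the same lines in which Nedd4 was targeted, which the series' text calls sgNEDD4 (sg stands for a single guide RNA of the Cas9 system). The medium was DMEM with fetal bovine serum throughout, all libraries carry the same batch label, and no other allele or agent is named. The position of the guide, the guide carried by the control cells if any, whether the KO cells are a clone or a pool, and whether replicates are separate cultures are not stated in the labels. The p-values thus measure only the spread between these libraries, which may be technical. The labels name no second KO derivative of either line, so a difference between the lines and a difference between their KO derivatives cannot be told apart.

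NEDD4 is a HECT-type E3 ubiquitin ligase. Its WW domains bind short proline-rich motifs in substrates or in adaptors such as the NDFIP and arrestin-domain proteins, and its HECT domain passes ubiquitin to the substrate, which is then sorted or degraded. Its known substrates include ion channels, receptors and signalling proteins at the membrane. 4T1 and EMT6 are both transplantable tumours of BALB/c mice. 4T1 keeps an epithelial character and metastasizes spontaneously, and EMT6 is the more mesenchymal line.

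Total counts ran from 13705612 to 19761604 per library, and the level that 3 counts stand for was 0.152 to 0.219 CPM (counts scaled to library size). The 4T1 KO libraries stood apart from the others in the number of genes with counts and in the level of 2 nuclear transcripts. They had counts for 20937 to 21264 genes, against 18014 to 19017 in the other 9 libraries. Their nuclear transcript Malat1 lay at 479 to 560 CPM, against 69.3 to 155 CPM in 4T1 control and 158 to 200 CPM in EMT6 KO. For Malat1 the first EMT6 control library held 450 CPM, and the others 189 and 213 CPM. The nuclear transcript Neat1 lay at 241 to 333 CPM in 4T1 KO and at 51.6 to 84.6 CPM in 4T1 control. It lay at 66.8 to 138 CPM in EMT6 control and at 28.2 to 36.1 CPM in EMT6 KO. The change of Malat1 differed between the lines by -2.92 ± 0.54 (SE, edgeR, adjusted p = 0.00154). These values move with the contrast of the lines, and their part in the results was not tested. In bulk RNA, fewer cells of a kind and less RNA per cell cannot be told apart. The biological coefficient of variation, the spread between libraries of a group beyond counting error, was 4.8% within 4T1 and 6.65% within EMT6.

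Both lines were checked against 10 mammary epithelial markers. In 4T1, 9 of 10 had a mean of at least 1 FPKM (fragments per kilobase of transcript, scaled to sequencing depth) in control and in KO. In EMT6, 3 had it in control and 2 in KO. Cdh1 and Grhl2 stood at 136 and 7.19 FPKM in 4T1 control and at or below 0.00667 FPKM in EMT6 control, and Cldn4 and Esrp1 were at 0 in all 6 EMT6 libraries. Keratin 8 was present in every group, from a mean of 293 FPKM in EMT6 control to 655 FPKM in 4T1 control. Of 22 leukocyte markers, 15 were at 0 in all EMT6 control libraries and 8 in all 4T1 control libraries, and Ptprc, which encodes the pan-leukocyte antigen CD45, did not exceed a mean of 0.04 FPKM in any group. The summed leukocyte markers ran from 20.4 to 64.6 FPKM over all libraries and came almost wholly from Cd68, Cd14 and Cd74. Of the fibroblast markers, Col1a1 stood at a mean of 165 FPKM in EMT6 control and 0.107 FPKM in 4T1 control, and Lum was at 0 in every group.

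Nedd4 itself fell in both lines, further in EMT6. In 4T1 the control libraries held 94.4, 97.6 and 93.5 FPKM and the KO libraries 24.7, 24.9 and 25.3 FPKM. In EMT6 it stood at 122, 121 and 116 FPKM in control and at 12.1, 11.5 and 12.1 FPKM in KO. The KO libraries lay below every control library of their line, and the EMT6 KO libraries below the 4T1 KO libraries. The log2 change was -1.99 ± 0.049 (SE) in 4T1 and -3.33 ± 0.051 in EMT6, a remaining level of 0.253 and 0.0992 times control. The difference of -1.35 ± 0.067 was called (edgeR, adjusted p = 1.14e-13), so the lines differ in the residual transcript. Its part in any other difference was not tested. The gene, ENSMUSG00000032216, lies on the plus strand of chromosome 9, and where its remaining reads lie along the transcript was not analysed here. It shares 2749 bases with Gm36936 on the same strand, so its counts from that stretch are uncertain.

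The response to KO differed between the lines for most tested genes. A gene is called where edgeR's quasi-likelihood test gives a Benjamini-Hochberg adjusted p under 0.05 over all 12006 genes. A called interaction was found for 7197 genes, 59.9% of those tested, with 3568 (29.7%) more positive in EMT6 and 3629 (30.2%) more negative. Within the lines, 6456 genes (53.8%) were called in 4T1, 3311 higher (27.6%) and 3145 lower (26.2%), and 7124 (59.3%) in EMT6, 3585 higher (29.9%) and 3539 lower (29.5%). In 62.4% of genes in 4T1 and 62.5% in EMT6, the ranges of the KO and the control group were separate. The median absolute difference between the changes was 0.41, larger than the median absolute change in either line, 0.25 in 4T1 and 0.28 in EMT6. The median of the signed difference was -0.01. A called difference of at least 1 on the log2 scale was found for 1733 genes (14.4%), 672 positive and 1061 negative.

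A gene's change in one line went with its change in the other only weakly, and on balance inversely. Across the 12006 genes the changes of the lines had a Pearson correlation of -0.07 and a Spearman correlation of -0.11, and 45.76% of genes had the same sign in both. Genes are not independent replicates, so this is a description. Of 4130 genes called in both lines, 1792 went the same way and 2338 went opposite ways. The interaction was also called for all 2338 opposite genes, 19.5% of those tested, which adds little, since both changes were already called with opposite signs. In 2098 of them KO and control did not overlap in either line, which also adds little, since both changes were already called. Over all tested genes the groups were separate in 62.4% in 4T1 and 62.5% in EMT6. The share separate in both lines is not given here. Most opposite changes were small, with 354 genes past a 1.5-fold change in both lines and 96 past a 2-fold change in both. The lines were about as far apart in KO as in control. The median absolute difference in level between EMT6 and 4T1 was 0.49 in control and 0.51 in KO, and 49.29% of genes were closer in KO than in control.

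**Figure D1:**
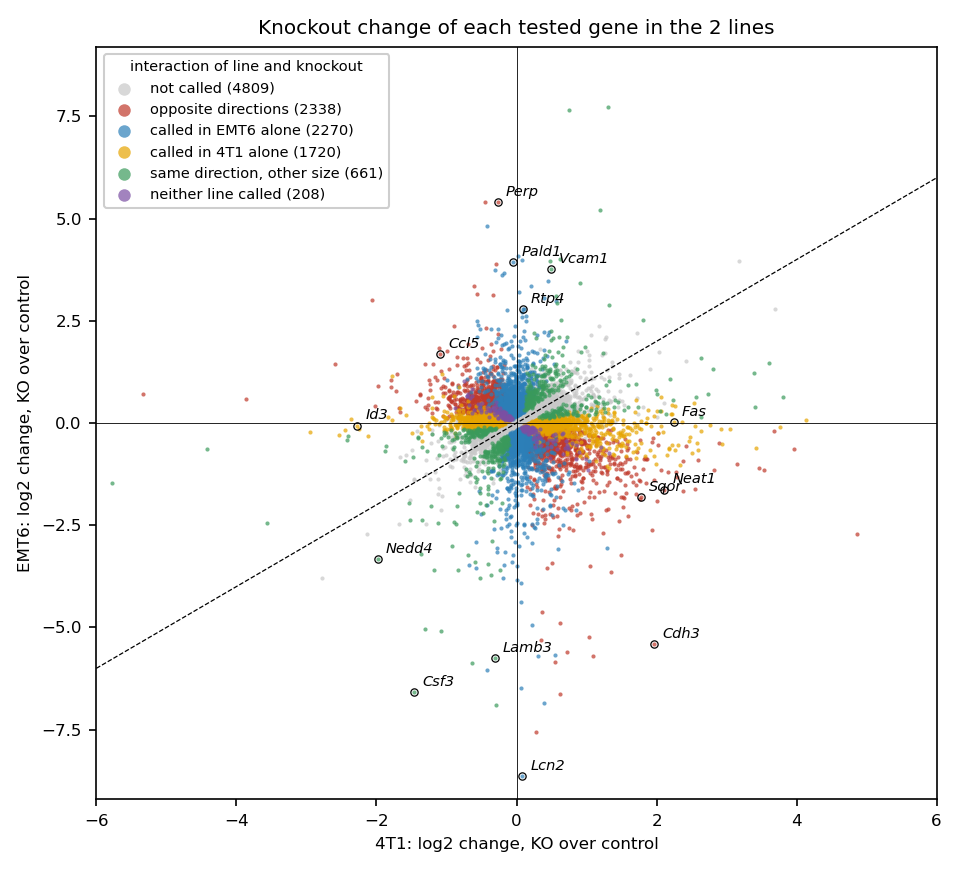
Knockout change of each of 12006 tested genes in 4T1 (x axis, log2 of KO over control) and in EMT6 (y axis, same scale), coloured by class, with the dashed line marking equal changes. The points fill all 4 quadrants, with 2338 genes called in opposite directions in the upper left and lower right and 2270 and 1720 genes called in EMT6 alone and 4T1 alone along the axes.

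The opposite genes divide into 1160 that rose in EMT6 KO and fell in 4T1 KO and 1178 that did the reverse. From each side 8 genes were taken, ranked by the smaller of a gene's absolute changes in the lines, keeping to genes that averaged at least 1 FPKM in each line and whose KO and control libraries were separate in both, so the lack of overlap is part of the choice. In the first set, Ccl5, a chemokine that attracts T cells and monocytes, stood in 4T1 at 15.8, 13.6 and 17.9 FPKM in control and at 7.69, 7.87 and 7.33 FPKM in KO. In EMT6 it stood at 2.4, 1.48 and 1.57 FPKM in control and at 5.9, 5.69 and 5.49 FPKM in KO. The 4T1 level thus fell by 1.1 ± 0.14 (SE, log2) and the EMT6 level rose by 1.68 ± 0.19, which left the KO groups nearer to each other than the controls had been. Ercc1, a subunit of the nuclease that cuts damaged strands in nucleotide excision repair, stood in 4T1 at 51.2, 52.3 and 57.8 FPKM in control and at 28.1, 28.2 and 25.4 in KO. In EMT6 its control libraries held 5.82, 5.41 and 6.58 FPKM and its KO libraries 12.6, 13.8 and 11.5 FPKM. It lost about as much on the log2 scale in 4T1 (-1.04 ± 0.068) as it gained in EMT6 (1.09 ± 0.083), but stayed higher in every 4T1 library than in any EMT6 library. Ercc1 shares 511 bases with Cd3eap on the other strand, and whether the counting used strand is not stated in the labels.

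Of the other genes in this set, Hilpda encodes a lipid droplet protein that is induced by hypoxia. It stood at 13.4, 10.6 and 12.9 FPKM in 4T1 control and 6, 6.3 and 7.93 FPKM in 4T1 KO, and at 7.35, 9.12 and 10 FPKM in EMT6 control and 15.7, 17.6 and 18.8 FPKM in EMT6 KO. The line with the higher level was 4T1 among controls by the mean and EMT6 among KO libraries without overlap. Galnt4, which starts mucin-type O-glycans, Nagpa, which uncovers the mannose 6-phosphate tag of lysosomal enzymes, and Cdh17, a cadherin, also fell in 4T1 and rose in EMT6, at 0.87 to 4.72 FPKM. The Galnt4 changes were -1.03 ± 0.13 in 4T1 and 0.88 ± 0.12 in EMT6, and those of Nagpa -1.08 ± 0.16 and 0.87 ± 0.14. For Cdh17 they were -1.23 ± 0.13 and 0.96 ± 0.12. Galnt4 lies within 5089 bases that it shares with Poc1b on the same strand, so its counts are uncertain. Tmco4 fell by 1.24 ± 0.16 in 4T1 and rose by 1.06 ± 0.11 in EMT6, and Megf6 fell by 0.86 ± 0.092 and rose by 1.62 ± 0.11.

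In the second set, higher in 4T1 KO and lower in EMT6 KO, each of the 8 genes was higher in EMT6 control than in 4T1 control by its mean. Cd109, a membrane-anchored protein that binds TGF-beta and its receptor, had the smallest error. It stood at 2.09, 2.24 and 2.32 FPKM in 4T1 control and at 5.46, 5.6 and 5.83 FPKM in 4T1 KO, against 64.8, 64.6 and 65.9 FPKM in EMT6 control and 28.1, 27.2 and 26.9 FPKM in EMT6 KO. The difference between the changes was -2.54 ± 0.077 (SE, edgeR, adjusted p = 1.89e-17). Sqor, the mitochondrial enzyme that oxidizes hydrogen sulfide, stood at 1.21, 0.98 and 1.14 FPKM in 4T1 control and 3.96, 4.18 and 3.75 FPKM in 4T1 KO. In EMT6 it stood at 18.5, 18.1 and 27.4 FPKM in control and 6.22, 6.07 and 5.91 FPKM in KO. The third EMT6 control library was the highest, and the KO libraries lay far below all 3. Edn1, the precursor of the vasoconstrictor endothelin-1, stood at 0.61, 0.34 and 0.58 FPKM in 4T1 control and 1.85, 1.77 and 1.75 FPKM in 4T1 KO. Its 4T1 control libraries held 11 to 21 counts. Its EMT6 values were 3.23, 3.53 and 3.29 FPKM in control and 1.11, 1.61 and 1.1 FPKM in KO, so the order of the lines was reversed between control and KO.

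Several genes of this set serve stress and amino acid metabolism. Ddit3 encodes CHOP, a transcription factor of the integrated stress response, and Gadd45a is induced by stress and DNA damage. Ddit3 stood at 2.42, 1.87 and 3.02 FPKM in 4T1 control and 5.41, 6.55 and 6.96 FPKM in 4T1 KO, and at 26.6, 21.6 and 37.6 FPKM in EMT6 control and 11.6, 12.2 and 7.64 FPKM in EMT6 KO. Gadd45a stood at 7.2, 5.56 and 6.62 FPKM in 4T1 control and 14.7, 15.4 and 18.6 FPKM in 4T1 KO, and at 125, 113 and 176 FPKM in EMT6 control and 35.2, 38.2 and 20.4 FPKM in EMT6 KO. Both varied between libraries of EMT6 control, with the third the highest, and their errors were the largest here along with that of Neat1 (differences of -2.76 ± 0.39 for Ddit3, -3.4 ± 0.41 for Gadd45a and -3.74 ± 0.41 for Neat1). Gpt2, the mitochondrial alanine aminotransferase, rose by 1.6 ± 0.19 in 4T1 and fell by 1.21 ± 0.16 in EMT6. Mgst1, a microsomal glutathione transferase, rose by 1.3 ± 0.18 and fell by 1.51 ± 0.11. Neat1, the RNA scaffold of nuclear paraspeckles, stood at 2.44, 2.8 and 4 FPKM in 4T1 control, 11.4, 15.7 and 14.2 in 4T1 KO, 6.54, 3.16 and 4.39 in EMT6 control and 1.33, 1.48 and 1.71 in EMT6 KO, and it moved with Malat1 in 4T1.

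**Figure D2:**
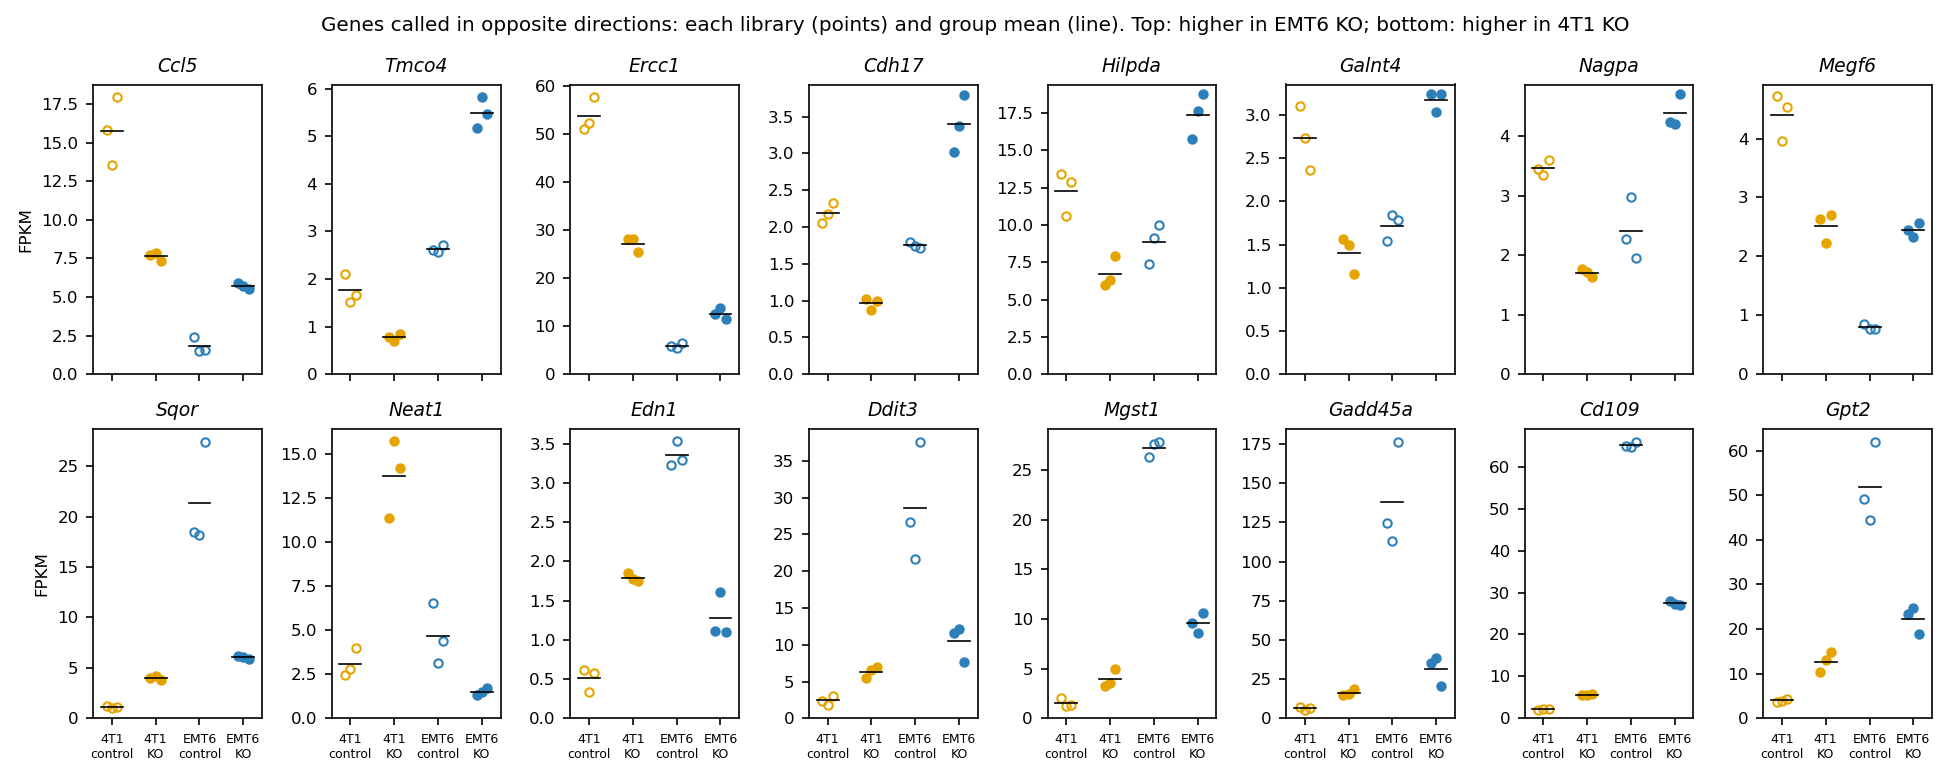
FPKM (y axis, linear, each panel with its own scale from 0) of 16 genes with opposite changes in each of 12 libraries, as points, with the mean of each group as a line. They rank highest by the smaller absolute change among opposite genes with at least 1 FPKM in each line and separate groups in both. In the top row KO lies below control in 4T1 and above it in EMT6, and in the bottom row the reverse, with Gadd45a at 113 to 176 FPKM in EMT6 control and 20.4 to 38.2 FPKM in EMT6 KO.

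In 2270 genes the interaction and the EMT6 change were called and the 4T1 change was not, 1132 higher and 1138 lower in EMT6. A missed call does not show a lack of change, so a stricter class was formed from the 1383 of them in which the 95% interval of the 4T1 change lay within 0.3 of 0 on the log2 scale. Of these, 690 rose and 693 fell in EMT6. At an average of 1 FPKM or more in each line, the level that all examples had to reach, the largest increase was that of Pald1, which encodes the phosphatase-domain protein paladin. Pald1 stood at 2.88, 3.57 and 2.78 FPKM in EMT6 control and 47.4, 45.3 and 49 FPKM in EMT6 KO, a 15.4-fold level. In 4T1 it stood at 4.46, 4.37 and 3.81 FPKM in control and 4.1, 3.63 and 4.98 FPKM in KO, where the groups overlapped. Nuak1, a kinase related to AMPK, rose from 6.36 ± 0.129 to 20.3 ± 0.85 FPKM (SD, n = 3) in EMT6 and stood at 7.37 ± 0.502 and 7.28 ± 0.0361 FPKM in 4T1. Tuba1a, an alpha-tubulin with near-identical relatives whose reads may be shared, rose by 2.25 ± 0.083 in EMT6 from a level far under that of 4T1. The other 3 of the 6 largest increases at that level, Hmgcs1, Cyp51 and Irgm1, belong to cholesterol synthesis and to the interferon response and are described with those genes.

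Among decreases confined to EMT6 by this rule, Lcn2 was the largest. Lcn2 encodes lipocalin 2, a secreted protein that binds bacterial iron carriers and is often high in mammary tumours. It stood at 73.4, 68.4 and 93.3 FPKM in EMT6 control and at 0.16, 0.19 and 0.24 FPKM in EMT6 KO, where each library held 8 to 10 counts. In 4T1 it stood at 18.4, 17.4 and 18.5 FPKM in control and 18.4, 20.4 and 20.9 FPKM in KO. The EMT6 level was 0.00252 times control, and the 4T1 groups overlapped. Elf3, an epithelial transcription factor of the ETS family, stood at 10.6, 12.2 and 11.2 FPKM in EMT6 control and 1.7, 1.96 and 1.72 FPKM in EMT6 KO, and at 15.1, 14.6 and 15 FPKM in 4T1 control and 14, 14.4 and 15.7 FPKM in 4T1 KO. Tbkbp1, an adaptor of the kinase TBK1 in antiviral signalling, fell by 3.23 ± 0.12 in EMT6 and had a 4T1 change of -0.05 ± 0.092. Slc39a4, a zinc importer, fell by 3.01 ± 0.23, Kcnk5, a potassium channel, by 2.47 ± 0.15, and Abcc4, an efflux pump for cyclic nucleotides and drugs, by 2.45 ± 0.12. The EMT6 KO libraries held 6 to 22 counts for Slc39a4 and 23 to 27 for Kcnk5. For Abcc4 the 4T1 change was 0.00 ± 0.069.

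The interaction and the 4T1 change were called without the EMT6 change in 1720 genes, 887 higher and 833 lower in 4T1, and in 1090 of them the EMT6 interval lay within 0.3 of 0 (479 higher, 611 lower). Fas, the death receptor, had the largest increase of this stricter class at an average of 1 FPKM or more in each line. It stood at 1.35, 1.33 and 1.17 FPKM in 4T1 control and 5.3, 6.62 and 7.13 FPKM in 4T1 KO, a 4.74-fold level, against 12.3, 12.6 and 11 FPKM in EMT6 control and 10.5, 12.7 and 13.3 FPKM in EMT6 KO. The 4T1 KO libraries had moved toward the level that both EMT6 groups held. The same was true of Pmp22, a myelin and membrane protein, with 8.71, 6.33 and 6.91 FPKM in 4T1 control, 17.6, 19.2 and 22.2 FPKM in 4T1 KO and 52.9 to 64.1 FPKM in all 6 EMT6 libraries. Adamtsl4, a secreted protein of the fibrillin matrix, rose by 1.33 ± 0.11 in 4T1, Fmn1, a formin that builds actin filaments, by 1.18 ± 0.058, Podnl1 by 1.23 ± 0.089 and Ccdc9b by 1.24 ± 0.076.

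Id3 was the largest decrease confined to 4T1 by this rule. It encodes an inhibitor of helix-loop-helix transcription factors and is a classical target of BMP signals. Id3 stood at 13.7, 13.2 and 13 FPKM in 4T1 control and 2.84, 2.96 and 2.76 FPKM in 4T1 KO, against 63, 65.6 and 68.4 FPKM in EMT6 control and 60.6, 61.5 and 66.1 FPKM in EMT6 KO. The difference between the changes was 2.21 ± 0.10 (edgeR, adjusted p = 4.21e-14). Plau, the protease urokinase, stood at 101, 95.6 and 92.1 FPKM in 4T1 control and 41.7, 40.4 and 41.9 FPKM in 4T1 KO, which is close to the 42.8 to 48 FPKM of the EMT6 libraries. Rhoj, a small GTPase, fell by 1.77 ± 0.12, and Gpx1, a selenium enzyme that removes peroxides, by 1.36 ± 0.12. N4bp2, whose protein was named for binding NEDD4, fell by 1.25 ± 0.093 in 4T1 and had an EMT6 change of 0.00 ± 0.085. Dhrs4, a short-chain dehydrogenase, fell by 1.11 ± 0.14.

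A further 661 genes changed the same way in both lines but by different amounts. Of those that rose, 222 rose more in EMT6 and 123 more in 4T1, and of those that fell, 198 fell more in EMT6 and 118 more in 4T1. Vcam1, an adhesion molecule for leukocytes, stood at 0.81, 0.85 and 0.96 FPKM in EMT6 control and 12.1, 12.1 and 11.7 FPKM in EMT6 KO, and at 9.05, 8.16 and 8.9 FPKM in 4T1 control and 12.9, 11.8 and 13.4 FPKM in 4T1 KO. The lines were far apart in control and overlapped in KO. Nfkbie, an inhibitor of NF-kappaB, rose by 2.2 ± 0.084 in EMT6 and by 0.25 ± 0.077 in 4T1. Csf3, the granulocyte colony-stimulating factor behind the neutrophil excess of 4T1-bearing mice, stood at 144, 139 and 147 FPKM in 4T1 control and 55.3, 55.4 and 51.3 FPKM in 4T1 KO. In EMT6 it stood at 14.9, 14.7 and 12.8 FPKM in control and 0.26, 0.11 and 0.04 FPKM in KO, the latter from 7, 3 and 1 counts. Csf3 was thus lowered in both lines and nearly lost in EMT6. Lamb3, a laminin chain of epithelial basement membranes, fell from 2.87 ± 0.397 to 0.0567 ± 0.0462 FPKM in EMT6, where the KO libraries held 4 to 11 counts, and from 35.1 ± 1.06 to 29.4 ± 1.74 FPKM in 4T1.

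Hacd4 and Cib2 rose more in 4T1, from low levels. Hacd4, an enzyme of long-chain fatty acid elongation, rose by 2.74 ± 0.12 in 4T1 and 0.72 ± 0.077 in EMT6. Cib2, a calcium-binding protein, rose by 2.0 ± 0.31 in 4T1, where its control libraries held 9 to 14 counts and the first KO library was well under the other KO libraries, and by 0.7 ± 0.10 in EMT6. The Cib2 difference of -1.3 ± 0.33 was not called on another scale, where limma on log2(FPKM + 1) gave -0.36 with an adjusted p of 0.186. Car12, a carbonic anhydrase of the cell surface, and Arhgdig fell more in 4T1. Car12 stood at 15.3, 15 and 16.5 FPKM in 4T1 control and 4.6, 4.32 and 4.42 FPKM in 4T1 KO, and at 26.2, 26.1 and 26.5 FPKM in EMT6 control and 16.5, 17.1 and 19.8 FPKM in EMT6 KO. Arhgdig fell by 1.88 ± 0.14 in 4T1 and 0.69 ± 0.14 in EMT6.

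The tested genes were also read by 26 gene lists of pathways and functions, each described by its counts and its median. The background is 59.9% called, 19.5% opposite and a median difference of -0.01. The lists, like the choice to study the interaction, were made with earlier results of these data known, so their counts are descriptions. The largest positive median differences were those of cholesterol synthesis (0.89) and interferon-stimulated genes (0.84), and the largest negative those of ATF4 and amino acid supply (-0.94) and of epithelial junction and keratin genes (-0.69). Members that are named with their changes alone were chosen after their values were seen.

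**Figure D3:**
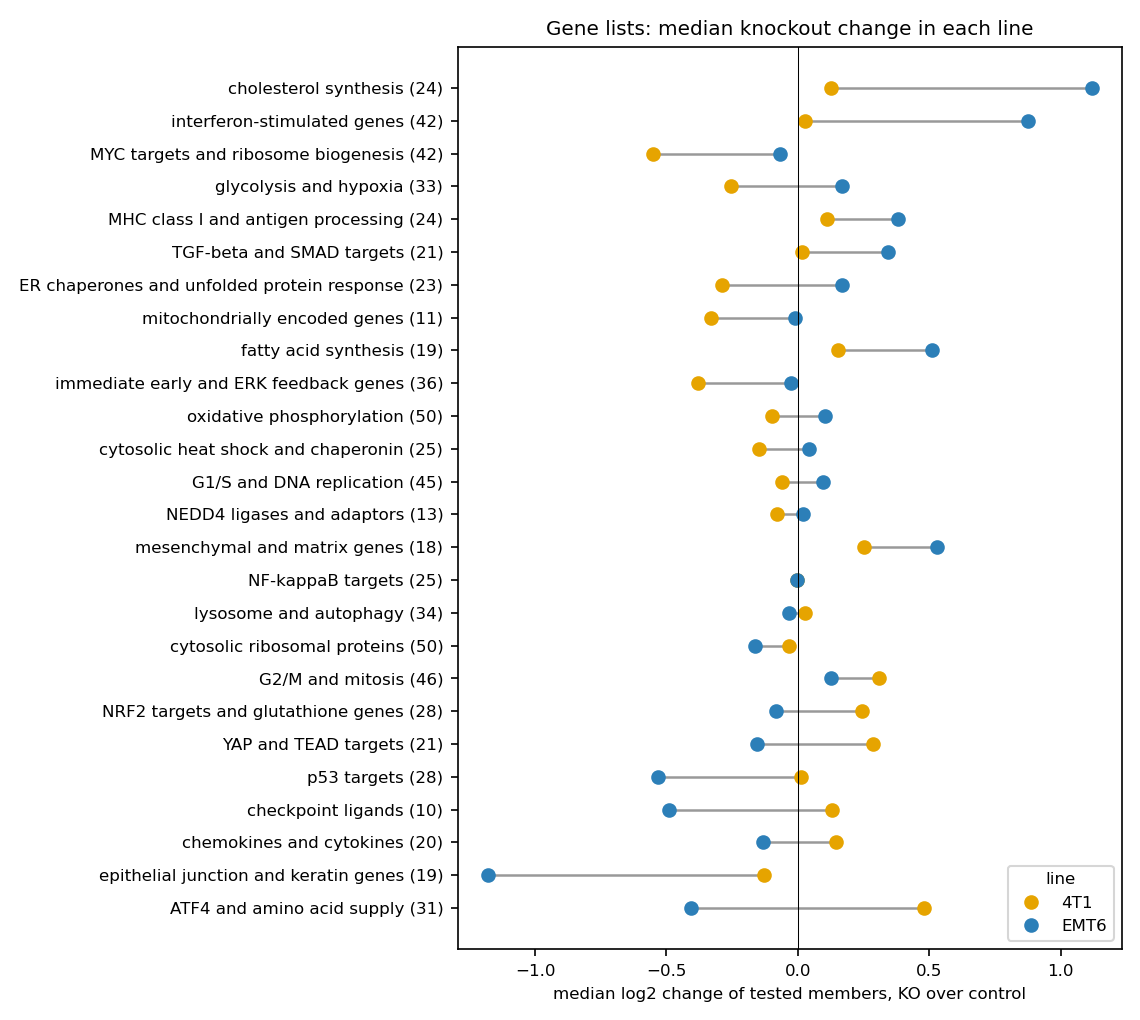
Median log2 change of the tested members of each of 26 gene lists (number of tested members in brackets) in 4T1 and in EMT6, joined by a line and ordered by the median difference. Cholesterol synthesis and interferon-stimulated genes lie to the right in EMT6 (1.12 and 0.88) and near 0 in 4T1 (0.13 and 0.03), and ATF4 genes lie on opposite sides of 0.

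Interferon-stimulated genes rose in EMT6 and mostly not in 4T1. These genes answer type I interferon, double-stranded RNA or cytosolic DNA, through transcription factors that bind GAAA repeats in their promoters. Of 42 tested members, 39 were called higher in EMT6 and none lower, with a median change of 0.88. In 4T1, 10 were called higher and 6 lower, with a median of 0.03. The difference between the lines was called for 33 members (78.6%), 31 more positive in EMT6 and 2, Ifit2 and Oas3, more positive in 4T1. Its median of 0.84 ran from 0.60 among members with at least 5 FPKM in each line to 0.92 with no filter on low counts. By lowest interaction p the leading members were Ifitm3, Oasl2, Rtp4 and Irgm1. Oasl2, a relative of the oligoadenylate synthetases, stood at 2.55, 2.27 and 2.4 FPKM in EMT6 control and 10.7, 12 and 9.35 FPKM in EMT6 KO, and at 1.62, 1.46 and 1.58 FPKM in 4T1 control and 1.47, 1.56 and 1.14 FPKM in 4T1 KO. Irgm1, a GTPase that acts on vesicles holding pathogens, stood at 3.63, 3.76 and 3.12 FPKM in EMT6 control and 10.5, 10.5 and 10.4 FPKM in EMT6 KO, and at 2.18, 1.74 and 2.22 FPKM in 4T1 control and 1.99, 2.04 and 2.16 FPKM in 4T1 KO. Both were separated in EMT6 and overlapped in 4T1.

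Rtp4, a chaperone of receptors that interferon induces, rose from 3.19 ± 0.202 to 21.9 ± 2.38 FPKM in EMT6 and stood at 1.77 ± 0.327 and 1.97 ± 0.146 FPKM in 4T1. Opposite calls were found for 5 of the 42 tested members, a smaller share than the 19.5% of all tested genes. All 5 were higher in EMT6 KO and lower in 4T1 KO. Among them was Ifitm3, a membrane protein that blocks virus entry. It stood at 352, 331 and 319 FPKM in 4T1 control and 174, 178 and 176 FPKM in 4T1 KO, against 340.0, 349.8 and 317 FPKM in EMT6 control and 451, 484 and 428 FPKM in EMT6 KO, so that controls of overlapping range stood beside a lower KO group in 4T1 and a higher one in EMT6. Stat2, Irf9 and Irf7, transcription factors of the response, rose in EMT6 by 1.06 ± 0.086, 1.02 ± 0.088 and 1.04 ± 0.10. In 4T1 their changes were 0.63 ± 0.094, -0.07 ± 0.11 and -0.26 ± 0.16, of which that of Stat2 was called. The differences between the lines were called for all 3. Usp18, which removes ISG15 and damps the interferon receptor, rose by 2.51 ± 0.17 in EMT6, and its 4T1 change of -0.56 ± 0.34 was not called.

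Of the 42 tested members, 34 had a promoter in the RefSeq table for GRCm38.p6 (250 bases before to 50 after the start). The core of the interferon response element, GAAANNGAA, was found on either strand in 23 of them (67.6%), against 9.76% of 27025 genes with a promoter in the table and 8.39% of the 8825 such genes tested. The members with a match had a median change of 0.90 in EMT6 and 0.03 in 4T1, and the 11 without one 0.48 and -0.05. A match is a run of letters and not a shown binding site. The promoters of Irgm1 (chr11:48871371-48871670, minus strand) and Ifit1 (chr19:34640639-34640938, plus strand) are shown as examples of members called in EMT6 alone, with every match in capitals. In Irgm1 the matches start 30 and 24 bases before the start of the gene and overlap. In Ifit1 they start 109, 103 and 84 bases before it, on the reverse strand.
Irgm1: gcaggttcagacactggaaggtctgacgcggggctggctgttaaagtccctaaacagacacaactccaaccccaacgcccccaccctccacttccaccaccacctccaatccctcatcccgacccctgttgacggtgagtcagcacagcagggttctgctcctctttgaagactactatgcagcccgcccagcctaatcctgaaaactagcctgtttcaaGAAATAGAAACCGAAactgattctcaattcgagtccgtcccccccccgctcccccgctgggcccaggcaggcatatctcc
Ifit1: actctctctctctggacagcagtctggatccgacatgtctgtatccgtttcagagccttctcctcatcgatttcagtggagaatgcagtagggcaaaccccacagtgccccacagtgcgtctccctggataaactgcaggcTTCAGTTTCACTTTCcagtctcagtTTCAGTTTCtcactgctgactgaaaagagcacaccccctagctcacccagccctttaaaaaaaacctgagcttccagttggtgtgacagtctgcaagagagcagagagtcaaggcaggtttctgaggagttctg
Ifit1, which binds foreign RNA ends, rose by 3.21 ± 0.16 in EMT6 with a 4T1 change of 0.03 ± 0.28, and its neighbour Ifit3 rose by 3.63 ± 0.20 with a 4T1 change of -0.21 ± 0.33. Both have close relatives in the same gene cluster, and how reads matching more than 1 of them were counted is not stated in the labels.

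Genes of MHC class I and antigen processing differed between the lines in both directions. Of 24 tested members the interaction was called for 18 (75%), 12 more positive and 6 more negative in EMT6, with a median of 0.41. Parts of the peptide loading pathway were higher in EMT6 KO. Tapbp, the tapasin that bridges MHC class I to the peptide transporter, rose in both lines, from 34 ± 1.96 to 48.2 ± 2.23 FPKM in 4T1 and from 66.9 ± 4.46 to 157 ± 2.55 FPKM in EMT6. Tapbp shares 3422 bases with Zbtb22 on the same strand, so its counts are uncertain. Erap1, the peptidase that trims peptides in the endoplasmic reticulum, stood at 9.27, 9.92 and 8.98 FPKM in EMT6 control and 20.4, 20.1 and 21 FPKM in EMT6 KO. In 4T1 it stood at 5.33, 5.23 and 5.22 FPKM in control and 3.8, 4.06 and 3.68 FPKM in KO, so it rose in one line and fell in the other without overlap. The loading chaperones Pdia3 and Calr likewise fell in 4T1, by 0.31 ± 0.047 and 0.42 ± 0.052, and rose in EMT6, by 0.43 ± 0.047 and 0.25 ± 0.051. The Calr difference of 0.67 ± 0.073 was not called when tested against a 1.5-fold difference (edgeR, adjusted p = 0.187). The 6 members with a more negative change in EMT6 were Nlrc5, the transactivator of the class I genes, and the class I genes H2-Q6, H2-Q7, H2-T22, H2-T23 and H2-M3. Class I genes are near-identical to one another, so their separate values are uncertain.

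Cholesterol synthesis genes rose in EMT6 KO almost as a set. SREBP2 drives these genes when the cholesterol of the endoplasmic reticulum is low. Of 24 tested members, 23 were called higher in EMT6, with a median of 1.12, and 11 were called higher and 2 lower in 4T1, with a median of 0.13. A difference between the changes was called for 20 (83.3%), each more positive in EMT6. Hmgcs1, which makes HMG-CoA, stood at 32.3, 37.5 and 24.6 FPKM in EMT6 control and 116, 113 and 120.4 FPKM in EMT6 KO, and at 40.6, 41.7 and 43.3 FPKM in 4T1 control and 45.6, 44.6 and 42 FPKM in 4T1 KO. Cyp51, the lanosterol demethylase, stood at 51.4, 57 and 47.2 FPKM in EMT6 control and 145, 148 and 139.9 FPKM in EMT6 KO, and at 36.1, 33.6 and 37 FPKM in 4T1 control and 38.9, 36.4 and 39.1 FPKM in 4T1 KO. For both, the EMT6 KO libraries lay far above all others. Hsd17b7, a reductase of the late pathway, rose in EMT6 from 4.71 ± 1.1 to 16.6 ± 0.633 FPKM and fell in 4T1 from 8.31 ± 0.197 to 6.12 ± 0.231 FPKM.

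Sqle, the squalene epoxidase, also went opposite ways, with 1.06 ± 0.058 in EMT6 and -0.22 ± 0.058 in 4T1. Nsdhl, a sterol dehydrogenase, rose in both, by 1.38 ± 0.069 in EMT6 and 0.27 ± 0.075 in 4T1. Insig1, the sterol sensor that holds SREBP back, rose by 2.1 ± 0.13 in EMT6 and 0.61 ± 0.13 in 4T1. Srebf2 itself rose by 0.33 ± 0.050 in EMT6 and 0.41 ± 0.051 in 4T1, and its difference was not called. Of 19 tested genes of fatty acid synthesis, 16 were called higher in EMT6 and 9 higher and 3 lower in 4T1. The interaction passed the test for 11 (57.9%), near the background, with a median of 0.34 that came down to 0.19 without the third EMT6 control library.

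ATF4 targets and genes of amino acid supply went opposite ways. ATF4 is the transcription factor of the integrated stress response, and it drives amino acid transporters, amino acid synthesis and transfer RNA synthetases. Of 31 tested members, 19 were called higher and 1 lower in 4T1 (median 0.48), and 1 was called higher and 22 lower in EMT6 (median -0.41). The interaction was called for 25 (80.6%), 24 of them more negative in EMT6. Of the 31 members, 14 were called in opposite directions, against 19.5% of all tested genes. Slc7a11, the cystine importer, stood at 0.39, 0.47 and 0.45 FPKM in 4T1 control and 1.15, 1.33 and 1.41 FPKM in 4T1 KO. In EMT6 it stood at 67.8, 57.4 and 62.5 FPKM in control and 18.8, 18.9 and 15.2 FPKM in KO. It rose in the line where it was low and fell in the line where it was high, and every EMT6 library stayed above every 4T1 library. Slc3a2, the heavy chain that pairs with Slc7a11 and Slc7a5, rose from 41.5 ± 1.26 to 60.2 ± 4.2 FPKM in 4T1 and fell from 231 ± 26.1 to 136 ± 10.2 FPKM in EMT6.

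Slc1a4, a carrier of serine and alanine, rose by 0.92 ± 0.081 in 4T1 and fell by 0.51 ± 0.069 in EMT6. Ddit4, an inhibitor of mTORC1, fell by 0.96 ± 0.065 in EMT6, and its 4T1 change of -0.03 ± 0.079 was not called. Among stress genes, Chac1, a glutathione-degrading enzyme, and Trib3, a pseudokinase, rose in 4T1 by 2.59 ± 0.22 and 1.39 ± 0.32 and fell in EMT6 by 0.9 ± 0.18 and 0.98 ± 0.25. Asns, the asparagine synthetase, rose in 4T1 by 0.81 ± 0.11, and its EMT6 change of -0.19 ± 0.11 was not called. Atf4 itself had a difference of -0.63 ± 0.092, with 0.15 ± 0.066 in 4T1 and -0.47 ± 0.064 in EMT6. The 1 member with a more positive change in EMT6 was Wars, the transfer RNA synthetase for tryptophan, which interferon also induces. Wars fell by 0.64 ± 0.12 in 4T1, and its EMT6 change of -0.21 ± 0.11 was not called. NRF2 targets and glutathione genes, a list that also holds Slc7a11, had a median difference of -0.25. Of 28 tested, 17 were called higher and 2 lower in 4T1, and 10 higher and 13 lower in EMT6. The interaction was called for 71.4%, 5 more positive and 15 more negative in EMT6.

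MYC targets and ribosome biogenesis genes fell together in 4T1 and split in EMT6. All 42 tested members were called lower in 4T1 (median -0.55), against 8 higher and 15 lower in EMT6 (median -0.07). A called interaction was found for 33 (78.6%), 30 more positive in EMT6. The list holds genes already known to fall in 4T1, so its 4T1 direction is not independent evidence. Odc1, the first enzyme of polyamine synthesis, stood at 252, 237 and 254 FPKM in 4T1 control and 128, 129 and 130.0 FPKM in 4T1 KO, and at 132, 148 and 146 FPKM in EMT6 control and 157, 153 and 155 FPKM in EMT6 KO. The 4T1 KO libraries came down to just under the range of EMT6 control. Nop16, a nucleolar protein, fell by 0.57 ± 0.065 in 4T1 and rose by 0.36 ± 0.060 in EMT6, and Rrs1, a ribosome assembly factor, fell by 0.83 ± 0.061 with an EMT6 change of 0.14 ± 0.062. Myc itself fell in both lines, by 0.55 ± 0.062 in 4T1 and 0.62 ± 0.065 in EMT6, with a difference of -0.07 ± 0.089 that was not called.

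Nme1, a nucleoside diphosphate kinase, stood at 25.3, 25.6 and 26.2 FPKM in 4T1 control and 13.4, 13.9 and 13.9 FPKM in 4T1 KO, and at 22.4, 24.9 and 21.2 FPKM in EMT6 control and 26.4, 24.9 and 25 FPKM in EMT6 KO. The EMT6 groups overlapped, although its change of 0.16 ± 0.060 was called. The E-box CACGTG, the preferred site of MYC with MAX, was found in the promoters of 12 of 36 list members in the table (33.3%), against 8.09% of all and 12% of tested genes. It is its own reverse complement. Members with it had a median change of -0.56 in 4T1 and -0.21 in EMT6, and the 24 without it -0.52 and -0.07. The promoter of Nme1 (chr11:93968223-93968522, minus strand, GRCm38.p6, RefSeq), the member with a match and the lowest interaction p, is shown with its E-box in capitals, 18 bases before the start.
Nme1: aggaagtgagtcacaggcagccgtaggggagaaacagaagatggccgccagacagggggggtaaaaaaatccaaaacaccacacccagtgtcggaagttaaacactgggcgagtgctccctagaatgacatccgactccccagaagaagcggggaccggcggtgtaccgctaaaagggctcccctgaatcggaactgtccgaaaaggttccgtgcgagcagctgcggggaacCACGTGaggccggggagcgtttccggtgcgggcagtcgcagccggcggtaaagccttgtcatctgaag
The table holds 2 promoter entries for Nme1, of which 1 is printed.

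**Figure D4:**
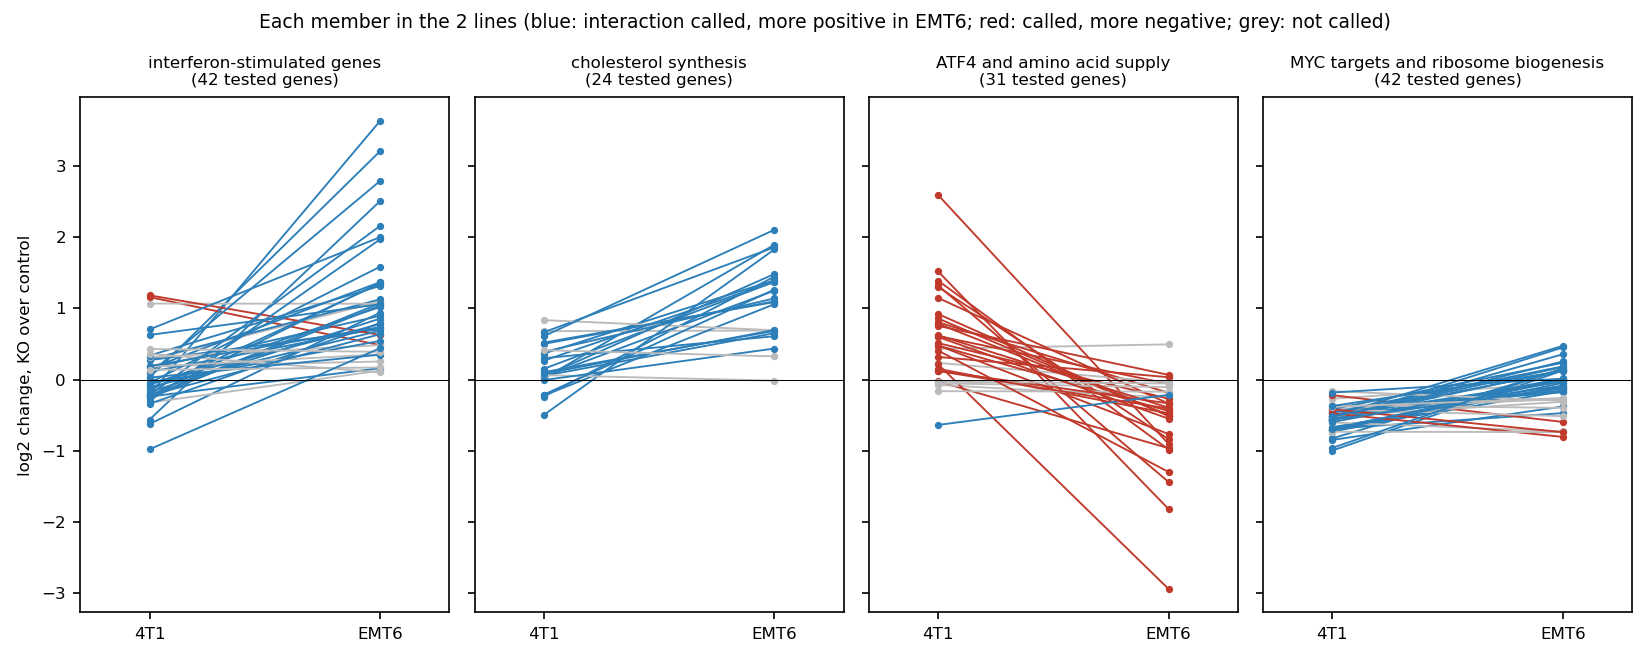
Log2 change (y axis) of each tested member of 4 gene lists in 4T1 and EMT6, with the members' values joined by a line, coloured where the interaction was called. Interferon-stimulated and cholesterol genes fan upward from 4T1 to EMT6, 24 of 31 ATF4 genes run downward with a called interaction, and MYC and ribosome biogenesis genes start below 0 in 4T1 and end around 0 in EMT6.

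Genes of epithelial junctions and keratins fell in EMT6, in which most are low to begin with. Of 34 listed, 19 passed the filter in both lines, so the counts speak only for members that both lines express. Of the 19, 15 were called lower and 2 higher in EMT6 (median -1.18), and 7 lower and 3 higher in 4T1 (median -0.13). The change differed between the lines for 16 (84.2%), 13 more negative in EMT6. Dsp, the desmoplakin that ties keratins to desmosomes, stood at 21.5, 19.9 and 19.1 FPKM in EMT6 control and 7.2, 6.57 and 6.5 FPKM in EMT6 KO, and at 23.7, 25.6 and 23.9 FPKM in 4T1 control and 28.6, 28.2 and 28 FPKM in 4T1 KO. It fell in EMT6 and rose by less in 4T1, with the groups separate in both lines. Cdh3, the P-cadherin, stood at 7.56, 7.1 and 7.76 FPKM in EMT6 control and 0.19, 0.15 and 0.19 FPKM in EMT6 KO, with 13 to 16 counts per KO library. The 10 mammary epithelial markers summed to 1960 to 2040 FPKM in 4T1 control, 1420 to 1500 FPKM in 4T1 KO and 348 to 415 FPKM in EMT6 control, with EMT6 KO inside that last range, and their part in the list's counts was not tested. In 4T1 Cdh3 was near the limit of detection, with 3 to 8 counts in the control and 16 to 31 in the KO libraries.

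Perp, a desmosome protein and p53 target, moved against the list. It stood at 0.21, 0.08 and 0.21 FPKM in EMT6 control, from 3 to 8 counts, and at 7.55, 6.61 and 7.68 FPKM in EMT6 KO, from 236 to 286 counts. In 4T1 it stood at 62.9, 52.5 and 60.1 FPKM in control and 45.9, 51.3 and 54 FPKM in KO, which overlapped. The difference of 5.68 ± 0.22 was called (edgeR, adjusted p = 2.14e-15). Krt8 also moved against the list, down in 4T1 by 0.77 ± 0.060 and up in EMT6 by 0.27 ± 0.059, while its partner Krt18 fell in both, by 0.4 ± 0.050 and 1.23 ± 0.056. Of 18 mesenchymal and matrix genes tested, 16 were called higher in EMT6 and 12 in 4T1, and the interaction was called for 9 (50%), under the background, with a median of 0.10 that ran from 0.04 on log2(FPKM + 0.1) to 0.25 among members with 5 FPKM or more in each line. Fn1, fibronectin, and Timp1, a metalloproteinase inhibitor, fell in 4T1 by 0.26 ± 0.067 and 0.28 ± 0.075 and rose in EMT6 by 0.77 ± 0.067 and 1.37 ± 0.067. Col1a1 rose in both lines but in 4T1 only between 0.09 and 0.26 FPKM, and its difference was not called. Col1a2 did not pass the filter in 4T1, and stood at 202, 199 and 194 FPKM in EMT6 control and 312, 309.6 and 348 FPKM in EMT6 KO. The 10 fibroblast markers, which include both collagens, summed to 352 to 382 FPKM in EMT6 control and 520 to 591 FPKM in EMT6 KO, and to 4.96 to 5.89 FPKM in all 4T1 libraries. Pdgfrb went from a mean of 0.953 to 9.78 FPKM and Col3a1 from 0.0467 to 6.77 FPKM in EMT6. Pdgfra went the other way there, from 5.55 to 4.83 FPKM. It made up most of the 4T1 sum, with 5.25 FPKM in control and 5.17 FPKM in KO. Dcn, Lum and Thy1 did not exceed 0.0133 FPKM in any group, and Fap and Postn did not exceed 0.05 FPKM. The part of other cells was not tested.

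Chemokines and cytokines had a median difference of -0.62 over 20 tested genes, with 4 called more positive and 11 more negative in EMT6 (75%). Cxcl5, a neutrophil attractant, stood at 329.7, 328 and 278 FPKM in EMT6 control and 25.2, 26.4 and 28.3 FPKM in EMT6 KO. In 4T1 it stood at 118, 111 and 111 FPKM in control and 153, 160.1 and 164 FPKM in KO, so it fell in EMT6 and rose in 4T1. Cxcl1, another neutrophil attractant, stood at 98.7, 104 and 83.5 FPKM in EMT6 control and 18.3, 16.4 and 19.9 FPKM in EMT6 KO, and at 116, 99.4 and 105 FPKM in 4T1 control and 90.4, 85.1 and 90.2 FPKM in 4T1 KO. Cxcl5, Cxcl1 and Csf3 were each lower in EMT6 KO by more than 4-fold. They are among the members with the lowest interaction p, so a large difference is part of the choice. The list's other neutrophil factors are not described here. The 4 genes that were more positive in EMT6 were Ccl5, Cxcl10, Il11 and Lif. Cxcl10, an attractant of T cells that interferon induces, rose by 3.34 ± 0.28 in EMT6 with a 4T1 change of 0.21 ± 0.25. NF-kappaB targets had no common direction, with 10 more positive and 8 more negative of 25 (72.0%) and a median of 0.07 that ran from 0.01 with scaling by total counts to 0.15 with no filter. The inhibitors Nfkbia and Tnfaip3 and the subunit Relb rose in EMT6, by 0.43 ± 0.084, 1.12 ± 0.063 and 1.4 ± 0.085, while Nfkbiz, Ikbke and Bcl3 fell there, by 2.22 ± 0.094, 2.0 ± 0.083 and 1.75 ± 0.11.

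Ligands of immune checkpoints had a median difference of -0.52 over 10 tested genes, 7 more negative and 1 more positive in EMT6 (80%). Nectin2, a ligand of the inhibitory receptor TIGIT, stood at 15.9, 14.6 and 17.1 FPKM in EMT6 control and 3.95, 3.97 and 3.95 FPKM in EMT6 KO, and at 12.9, 10.8 and 13.1 FPKM in 4T1 control and 18.1, 17.5 and 19 FPKM in 4T1 KO. It fell in EMT6 and rose in 4T1. Nectin3, an adhesion partner of the other nectins, went the other way in EMT6, from 0.11, 0.12 and 0.11 FPKM in control to 1.87, 1.81 and 1.78 FPKM in KO, and stood at 4.51 ± 0.0603 and 4.93 ± 0.185 FPKM in 4T1. Cd47, the signal that holds off phagocytes, rose by 0.19 ± 0.058 in 4T1 and fell by 0.39 ± 0.058 in EMT6, a difference of -0.57 ± 0.082 that was not called against a 1.5-fold difference (edgeR, adjusted p = 0.807). Vsir, the ligand VISTA, rose by 0.52 ± 0.20 in 4T1, where its control libraries held 24 to 34 counts, and fell by 0.82 ± 0.091 in EMT6. Cd274, which encodes PD-L1, fell by 0.89 ± 0.18 in EMT6, its 4T1 change of -0.37 ± 0.22 was not called, and neither was the difference.

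Targets of p53 fell in EMT6 and split in 4T1. Of 28 tested, 3 were called higher and 19 lower in EMT6 (median -0.53), and 10 higher and 10 lower in 4T1 (median 0.01). The difference between the lines was called for 22 (78.6%), 15 more negative in EMT6, with a median of -0.50 that came to -0.14 among members with a mean of at least 5 FPKM in each line. Plk2, a kinase of the stress response, stood at 31.6, 29.6 and 32 FPKM in 4T1 control and 41.5, 40.6 and 43.6 FPKM in 4T1 KO, and at 43.5, 41 and 44.8 FPKM in EMT6 control and 30.2, 29.1 and 28.4 FPKM in EMT6 KO. Its groups were separate in both lines, in opposite directions. Ckap2, a microtubule protein of mitosis, rose by 0.36 ± 0.057 in 4T1 and fell by 0.6 ± 0.058 in EMT6. Mdm2, the ligase that degrades p53, fell in both lines, by 0.28 ± 0.063 in 4T1 and 0.74 ± 0.062 in EMT6, and Cdkn1a, the cell cycle inhibitor p21, fell more in 4T1 (-1.59 ± 0.066) than in EMT6 (-0.94 ± 0.061).

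Cell cycle genes were read by phase. Of 46 tested genes of G2/M and mitosis, 38 were called higher and 1 lower in 4T1 (median 0.31), and 23 higher and 11 lower in EMT6 (median 0.13). A difference between the changes was called for 35 (76.1%), 26 more negative in EMT6, with a median of -0.24, or -0.16 with no filter on low counts. Espl1, the separase, and Cdc25b, a phosphatase that starts mitosis, rose in 4T1 by 0.64 ± 0.053 and 0.69 ± 0.051 and fell in EMT6 by 0.32 ± 0.052 and 0.15 ± 0.051. Of 45 genes of G1/S and DNA replication, 21 were more positive and 9 more negative in EMT6 (66.7%), with a median of 0.18, or 0.10 at 5 FPKM or more. The helicase subunits Mcm2, Mcm3, Mcm5, Mcm6 and Mcm7 were each called in opposite directions, with 4T1 changes from -0.45 ± 0.058 to -0.23 ± 0.055 and EMT6 changes from 0.16 ± 0.053 to 0.3 ± 0.051. Mcm4 was called in neither direction for the interaction.

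Glycolysis and hypoxia genes, and the chaperones of the endoplasmic reticulum, tended to fall in 4T1 and rise in EMT6. Of 33 glycolysis and hypoxia genes, 4 were called higher and 15 lower in 4T1, and 16 higher and 9 lower in EMT6. The interaction passed the test for 26 (78.8%), 18 more positive, with a median of 0.48. Of the 33 genes, 11 were opposite, against 19.5% of all tested genes. Ldha, the lactate dehydrogenase of glycolytic cells, stood at 373, 400.2 and 445 FPKM in 4T1 control and 265, 279 and 272 FPKM in 4T1 KO, and at 439, 514 and 435 FPKM in EMT6 control and 566, 579.6 and 689 FPKM in EMT6 KO. The glucose transporter Slc2a1 fell by 0.82 ± 0.12 in 4T1 and rose by 0.42 ± 0.11 in EMT6. Pfkfb3, which makes the activator of phosphofructokinase, and Pfkm, a phosphofructokinase, moved against the list. Pfkfb3 stood at 6.78, 6.86 and 6.58 FPKM in EMT6 control and 0.94, 1.03 and 1.48 FPKM in EMT6 KO, and at 1.7 ± 0.218 and 2.11 ± 0.211 FPKM in 4T1, and Pfkm rose by 0.82 ± 0.083 in 4T1 and fell by 0.42 ± 0.071 in EMT6. Gapdh, which has many near-identical copies in the genome, stood at only 3.09 to 8.48 FPKM as group means, so its values are uncertain.

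Of 23 chaperones and genes of the unfolded protein response, the interaction was called for 18 (78.3%), 14 more positive in EMT6, with a median of 0.36. Of the 23, 10 were called in opposite directions, against 19.5% of all tested genes. Hspa5, the chaperone BiP, fell by 0.5 ± 0.068 in 4T1 and rose by 0.25 ± 0.068 in EMT6, and Pdia6 fell by 0.37 ± 0.046 and rose by 0.45 ± 0.045. Herpud1, which serves degradation from the endoplasmic reticulum, did the reverse, with 0.48 ± 0.098 in 4T1 and -0.47 ± 0.085 in EMT6. Immediate early and ERK feedback genes had a median of 0.32, with 18 more positive and 9 more negative of 36 (75%). The transcription factor Jun fell by 0.38 ± 0.079 in 4T1 and rose by 1.24 ± 0.086 in EMT6. The ERK phosphatase Dusp6 fell by 1.04 ± 0.049 in 4T1 with an EMT6 change of -0.1 ± 0.052, whereas Dusp4 fell more in EMT6 (-1.71 ± 0.12) than in 4T1 (-0.53 ± 0.069).

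TGF-beta and SMAD targets had 12 more positive and 5 more negative members of 21 in EMT6 (81%), with a median of 0.40 that came to 0.22 on log2(FPKM + 1). Pmepa1, which holds TGF-beta signals in check and binds NEDD4-family ligases, fell by 0.61 ± 0.091 in 4T1 and rose by 3.35 ± 0.14 in EMT6, an interaction of 3.96 ± 0.17. Tgfb1 fell by 0.48 ± 0.087 in 4T1 and rose by 0.3 ± 0.10 in EMT6, and Tgfb2 rose by 1.03 ± 0.15 in 4T1 and fell by 0.41 ± 0.078 in EMT6. YAP and TEAD targets had 3 more positive and 11 more negative of 21 (66.7%), with a median of -0.37 that came to -0.18 among members with at least 5 FPKM in each line. The list's usual leaders did not share a direction, since Ccn2 rose in EMT6 by 0.98 ± 0.082 while Ankrd1 rose in 4T1 by 0.33 ± 0.071 and fell in EMT6 by 0.25 ± 0.073.

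Of the relatives and adaptors of NEDD4, 13 were tested and the interaction was called for 8 (61.5%), close to the background, 6 more positive and 2 more negative in EMT6. Their median of 0.12 ran from 0.06 on log2(FPKM + 1) to 0.23 with chromosome medians subtracted. Besides Nedd4 the negative one was Nedd4l, the closest paralog, which rose by 0.49 ± 0.069 in 4T1 and fell by 0.35 ± 0.065 in EMT6. The ligases Itch and Wwp2 rose in EMT6 by 0.43 ± 0.050 and 0.45 ± 0.051, with 4T1 changes of -0.08 ± 0.049 and -0.01 ± 0.052 that were not called. Of the adaptors, Arrdc3 fell by 0.61 ± 0.075 in 4T1 and rose by 0.21 ± 0.071 in EMT6, and Txnip, an arrestin-domain protein that slows glucose uptake, rose by 1.2 ± 0.073 in EMT6 with a 4T1 change of -0.03 ± 0.070. Ndfip1 had a difference of 0.31 ± 0.091 that was called, and Ndfip2 had one of 0.08 ± 0.091 that was not.

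The remaining lists had smaller shares or medians near 0. The interaction was called for 50% of 50 cytosolic ribosomal proteins (4 more positive, 21 more negative, median -0.15, or -0.07 with no filter on low counts), for 54% of 50 genes of oxidative phosphorylation (23 and 4, median 0.18, or 0.07 among those with a mean of 5 FPKM or more in each line) and for 56% of 25 cytosolic chaperones (11 and 3, median 0.18, or 0.28 without the second EMT6 control library and 0.11 at 5 FPKM or more). It was called for 61.8% of 34 genes of lysosome and autophagy (7 and 14, median -0.01, with a range over the alternatives from -0.09 to 0.07). Of 11 mitochondrially encoded genes it was called for 3 (27.3%), well under the background, and their median of 0.34 ran from -0.08 to 0.56 over the alternatives. Many ribosomal protein genes have processed copies, so their counts are uncertain.

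Whole chromosomes also differed in median. Outside the 14 mitochondrial genes, whose median interaction was 0.42, the median ran from -0.25 on chromosome 3 to 0.28 on chromosome 12, over 582 and 433 genes, and it was 0.27 on chromosome 1, 0.24 on chromosome 13, -0.23 on chromosome 8 and -0.22 on chromosome 15. The medians of each line were as far from 0, for example -0.20 in 4T1 on chromosome 12 and -0.26 in EMT6 on chromosome 14. The X chromosome was shifted upward in both lines, by 0.32 in 4T1 and 0.26 in EMT6, and its interaction median was -0.03. Gene dosage was not measured, and its part in the interaction of any gene was not tested. With the median of each gene's chromosome subtracted, 25 of the 26 lists described above kept the sign of their median interaction, for example 0.82 for cholesterol synthesis and -0.83 for ATF4 and amino acid supply. The exception was the mitochondrially encoded genes, which are a chromosome of their own. The other chromosome medians lay within -0.25 to 0.28, so the larger list medians could not change sign in this check. It is not a test of gene dosage.

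**Figure D5:**
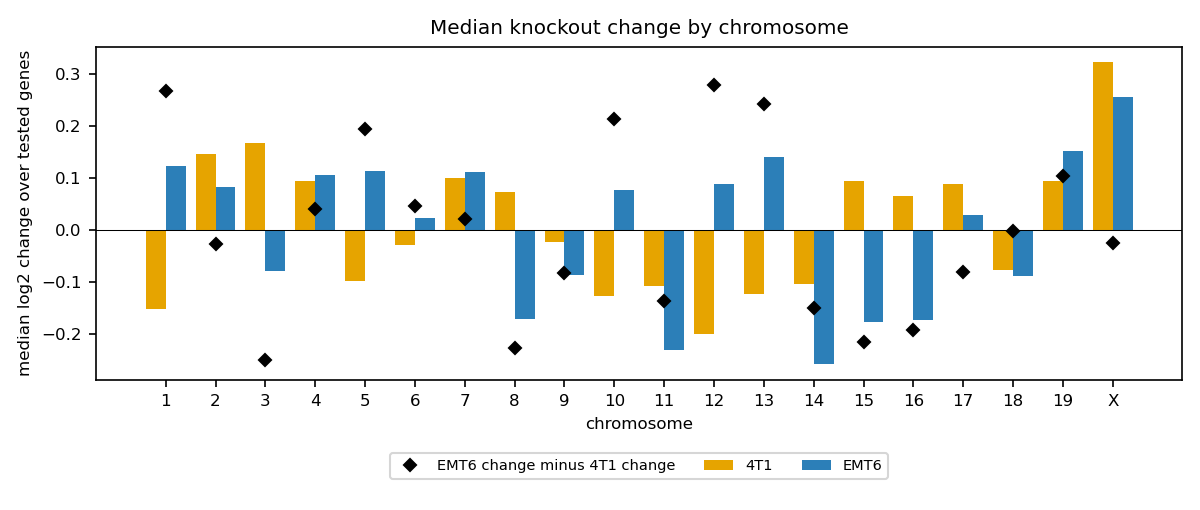
Median log2 change over the tested genes of each chromosome in 4T1 and EMT6 (bars from 0) and median of the difference between the changes (diamonds). Chromosomes 1, 5, 6, 10, 12 and 13 have a negative 4T1 and a positive EMT6 median, on chromosome 6 of only -0.03 and 0.02. Chromosomes 3, 8, 15 and 16 show the reverse, and the X chromosome is positive in both lines.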

How the data were processed

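Total RNA of 12 cultured-cell libraries was captured on mRNA beads and sequenced. The authors deposited a whole-number count for each gene and library, and the FPKM computed from it with gene lengths, in 1 table per line per the file headers. The submitters' processing notes name cutadapt 1.9.1, HISAT2 2.2.1, HTSeq 0.6.1, DESeq2 and the build GRCm38. Strand setting and the counting of reads with several matches are not stated in the labels, and 15 of 85 named genes overlap another tested gene. Gene positions in the deposited tables differ from those of GRCm38 annotation, so their build is not settled. Overlaps were found within the tables' own positions, which are not printed, and promoter positions are those of RefSeq.

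Here the tables were joined on gene identifier. Genes that passed edgeR's filterByExpr in both lines were tested on the deposited counts with TMM scaling and edgeR's quasi-likelihood test (edgeR 4.0.16, R 4.3.3), all 4 groups sharing 1 estimate of the spread, with Benjamini-Hochberg adjustment. Scripts were tested on simulated data. Symbols absent from the tables, 43 in all, came from GENCODE. FPKM are shown as deposited.

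Named genes were Nedd4, the 8 largest opposite changes in each direction, the 6 largest per direction in 1 line alone with the other line's 95% interval within 0.3 of 0, the 2 largest of each same-direction class, the 4 members with the lowest p in the 10 lists with the largest absolute median, and up to 4 leukocyte, endothelial or fibroblast markers that reached 5 FPKM in any group. Except for the list members, markers and Nedd4, they had at least 1 FPKM in each line. The opposite genes were ranked by the smaller of their absolute changes and had KO and control separate in both lines. Members and lists were chosen with earlier results of these data known. Alternatives were DESeq2 1.42.0, limma-voom and limma on log2(FPKM + 1) or log2(FPKM + 0.1) (limma 3.58.1), other scalings and filters, a 1.5-fold threshold, separate fits, replicate blocks and leaving out each library.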

Additional observations from a re-analysis of the deposited data

Results flagged for a closer look

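The change on Nedd4 loss differed between the lines by the test of the difference itself for 7197 of 12006 genes, and for 2338 genes it was called in opposite directions. Opposite genes were ranked by the smaller absolute change, among those with at least 1 FPKM in each line and separate groups in both. Of those ranked highest, these were more positive in EMT6, on the log2 scale: the interaction was 2.78 for Ccl5, 2.48 for Megf6, 2.31 for Tmco4, 2.18 for Cdh17, 2.13 for Ercc1, 1.95 for Nagpa, 1.91 for Galnt4 and 1.89 for Hilpda. More negative in EMT6 were Neat1 (-3.74), Sqor (-3.58), Gadd45a (-3.40), Edn1 (-3.13), Mgst1 (-2.81), Gpt2 (-2.80), Ddit3 (-2.76) and Cd109 (-2.54). These genes were picked for their opposite changes, so the values describe them.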

How the results depend on the processing

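No named gene with a called interaction changed sign under any alternative run. Of the recomputed values of named genes, 2222 counted as unchanged, against 7 that crossed the threshold (Cib2, Cd47, Calr and 4 for Cd74). The 2222 include the values with chromosome medians subtracted, which have no p-value. They would also include any change of sign in a gene whose interaction was not called. The Cd74 difference of 0.80 came to 0.53 without the second EMT6 control library (edgeR, adjusted p = 0.0539). When only genes averaging 5 FPKM or more in each line were kept, 6756 were tested and 4379 called, 2147 more positive and 2232 more negative in EMT6, with 1535 opposite, which follows from testing fewer genes. Against a 1.5-fold difference in place of 0, 2117 were called, 905 more positive and 1212 more negative, with 78 opposite, as the stricter null hypothesis requires. Leaving out 1 library at a time gave 6813 to 7211 called genes, 3336 to 3594 more positive and 3425 to 3632 more negative, with 2075 to 2398 opposite. DESeq2 called 7000 genes, of which 6959 were also called by edgeR, and limma-voom 7120, of which 7056 were. Scaling by total counts moved the median interaction to -0.07 and the share of called genes more positive in EMT6 from 49.6% to 43.7%. The median interaction changed sign for lysosome and autophagy under 2 alternatives and for mitochondrially encoded genes under 1, and for no other list.

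The labels number the replicates, and the deviations of libraries with the same number correlated between -0.138 and 0.096. Libraries with different numbers were not compared, so these values cannot decide whether the numbers pair the libraries. With a replicate block within each line 6997 genes were called and 2257 were opposite, and with a replicate block over both lines 7167 and 2326.

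Counts limit the values of genes near 0 in 1 group. On log2(FPKM + 1) the interaction of Cdh3 came to -3.13, the interaction of Perp to 3.04, the interaction of Csf3 to -2.34 and the interaction of Lamb3 to -1.62, against -7.36, 5.68, -5.12 and -5.44 on counts, since the pseudocount shrinks low levels.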
